A study of Mus musculus with 17 samples.

Results

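Acbp knockout and wild-type brown adipose tissue (BAT) were compared on chow, in 7 of the 17 RNA sequencing libraries of the study. All chow libraries entered: 4 from wild-type mice, numbered 1 to 4, and 3 from Acbp BAd-KO mice, numbered 2 to 4, in which Acbp was deleted in brown adipocytes. Both groups were of the inbred strain C57BL/6J and lived at 22 °C with a 12-h light cycle and free access to a standard diet. The other 10 libraries, 5 per genotype, came from mice that ate a high-fat diet (HFD) with 45% kcal as fat over 12 weeks. They entered the model for the estimate of the spread, and their values are set beside those on chow at the end. The sources used here do not give the recombinase driver, the age and sex of the mice or the time of day of collection. The labels do not say that each library is a separate animal, so p-values measure the spread between these libraries. The deletion was directed at 1 cell type of a mixed tissue, and fewer cells of a type cannot be told apart from less RNA per cell.

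Brown adipocytes oxidise fatty acids to make heat through uncoupling protein 1 (UCP1) in the inner mitochondrial membrane. Noradrenaline acts on β-adrenergic receptors there, and the cAMP that follows activates protein kinase A, releases fatty acids from lipid droplets and, through CREB-type factors, induces genes such as Ppargc1a, Dio2 and the Nr4a receptors. Fatty acids are activated to acyl-CoA esters before they are oxidised or re-esterified. Acyl-CoA-binding protein (ACBP), the product of Acbp, which is annotated as Dbi, binds these esters in the cytosol. The same protein is also known as diazepam-binding inhibitor.

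Depth was 39.6 to 43.9 M counts in the wild-type libraries and 47.2 to 49.7 M in the knockout libraries. The groups did not overlap in depth (exact permutation test, p = 0.0286, the smallest that 4 against 3 libraries allow, adjusted p = 0.162 over 17 library measures). Brown adipocyte markers were present in each library, with Ucp1 at 1715 CPM or more (CPM, counts scaled for library size and composition). Skeletal muscle markers summed to 542 to 3317 CPM in wild-type and 34.6 to 1929 CPM in knockout libraries. Of the 34 hepatocyte markers, Hp, Trf and Cyp2e1 were above 10 CPM in chow wild-type tissue. The other 31 summed to 3.27 to 3.66 CPM in wild-type and 15.6 to 97.7 CPM in knockout libraries, and 8 of them were at 0 in all wild-type libraries. Setting those 3 genes apart was decided after their levels were seen. Wild-type 1 and 2 have library names in another number run than the other 5 chow libraries. Beyond the alternatives given below, the part of depth, muscle, hepatocyte transcripts and number run of library names in the results was not tested. Xist was at 0 to 0.516 CPM and the Y-linked Ddx3y at 79.6 to 98.4 CPM in all 7 libraries.

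Dbi fell to 9.51% of its wild-type level. It stood at 1104, 1031, 1003 and 949 CPM in wild-type 1 to 4 and at 88.3, 99.97 and 103 CPM in knockout 2 to 4. The lowest wild-type library was far above the highest knockout library. The fall was 10.5-fold (log2 fold change -3.39, SE 0.13, edgeR quasi-likelihood test with Benjamini-Hochberg adjustment over 17717 genes, adjusted p = 2.68e-10). Among the other acyl-CoA-binding proteins that were measurable, Acbd3, Acbd4, Acbd5, Acbd6 and Eci2, none passed the test by edgeR, DESeq2 or limma-voom or had an unadjusted p under 0.05, and their log2 fold changes ran from -0.05 (Acbd6) to 0.04 (Acbd4).

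Across the tissue 187 of 17717 genes were called at an adjusted p of 0.05 or less, which is 1.06% of those tested. Of these 92 were higher (0.519%) and 95 were lower (0.536%) in the knockout. A change of 2-fold or more was seen in 24 of the higher and 42 of the lower genes. The median absolute log2 fold change was 0.72 among the called genes and 0.17 over all genes tested. The 7 libraries did not overlap between genotypes for 186 of the called genes and for 12.8% of all genes tested (knockout above in 6.63%, below in 6.17%), and Cldn1 was the called gene that overlapped. Without adjustment, p was under 0.05 for 2692 genes, or 15.2%. Of the called genes 166 were protein coding. A further 6 were copies of the U1 small nuclear RNA with identical counts, so the calls stand for 182 distinct measurements.

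**Figure D1:**
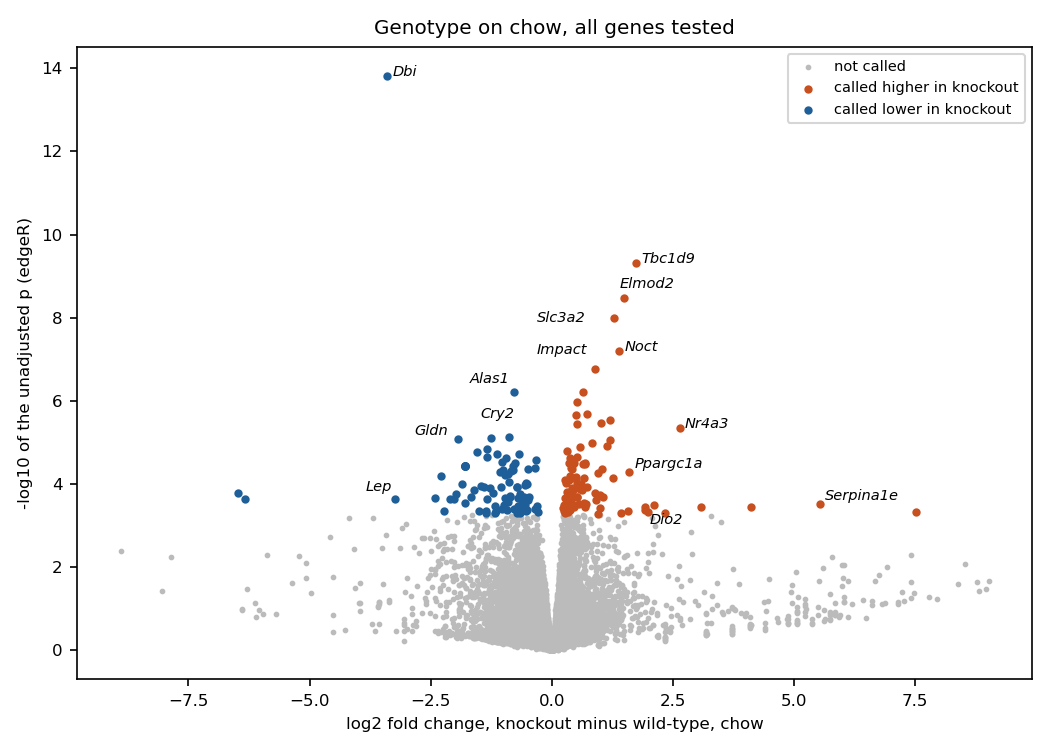
Log2 fold change of knockout over wild-type on chow (horizontal) against -log10 of the unadjusted edgeR p (vertical) for the 17717 genes tested, with called genes in colour. Dbi stands apart with the smallest p, followed by Tbc1d9, Elmod2, Slc3a2, Noct and Impact, all higher in the knockout.

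The number of calls depended on the test and on the libraries. DESeq2 called 608 of 17717 genes (329 higher and 279 lower) and limma-voom 81 (53 and 28). Calls by these tests within the lists below stand beside those counts. By edgeR the number was 28 without knockout 3, 23 without knockout 4 and 106 without knockout 2. It was 75 without wild-type 2, 127 without wild-type 1, and 169 and 185 without wild-type 3 and 4. In the same order, 26, 22, 80, 71, 96, 131 and 125 of the 187 genes were still called. Against wild-type 3 and 4 alone, whose library names share the number run of the knockouts, 16 genes were called. Scaling by library totals gave 83 higher and 48 lower calls, in place of 92 and 95, and 108 of the 187 genes were among them. With muscle and hepatocyte scores as covariates, the latter without Hp, Trf and Cyp2e1, 6 genes were called: Dbi, Noct, Slc3a2, Impact, Tbc1d9 and Elmod2. On chow all 3 knockout libraries were above the wild-type libraries in that hepatocyte score, so within chow its effect and that of genotype cannot be told apart. The HFD libraries were in the same fit. There the summed markers of that score overlapped, at 4.72 to 323.5 CPM in wild-type and 9.07 to 415.8 CPM in knockout libraries. The part of hepatocyte transcripts in the calls was not tested beyond this. Those 6 genes passed each of the 20 alternatives run. All 187 genes kept their direction in every alternative that tested them.

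Of 28 genes of the thermogenic programme, 3 rose in the knockout (Ppargc1a, Dio2 and Nrg4), none fell, and the median log2 fold change was -0.003, against -0.011 over all genes. Dio2 encodes type 2 deiodinase, which converts thyroxine to the active hormone T3 inside the cell. It stood at 48.7, 129, 142 and 55.9 CPM in wild-type 1 to 4 and at 325, 345 and 397 CPM in knockout 2 to 4. All knockout libraries were above all wild-type libraries, and the wild-type libraries split into a lower and a higher pair. Dio2 was 3.79-fold higher (log2 1.92, SE 0.43, adjusted p = 0.0458).

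Ppargc1a, the coactivator PGC-1α that drives mitochondrial and thermogenic genes, was at 54.4, 58.1, 73.5 and 48.7 CPM in wild-type and at 221, 186 and 125 CPM in knockout tissue. Knockout 4 was the lowest of its group and still above every wild-type library. The rise was 3.01-fold (log2 1.59, SE 0.29, adjusted p = 0.0161). Nrg4, a neuregulin secreted by brown fat, rose from 83.9 ± 4.10 to 116 ± 4.56 CPM (SD, n = 4 and 3, log2 0.47, SE 0.09, adjusted p = 0.0267). Ucp1 was at 1715, 2350, 3291 and 1796 CPM in wild-type and at 3074, 3187 and 3042 CPM in knockout tissue. Wild-type 3 exceeded the knockout libraries, and the difference did not pass the test (log2 0.44, SE 0.25, adjusted p = 0.437). Cidea, a lipid droplet protein, was level (log2 -0.08, SE 0.14), and the elongase Elovl3 was at 79.8 ± 30.4 CPM in wild-type and 55.2 ± 10.6 CPM in knockout tissue (adjusted p = 0.469). Prdm16, a determinant of brown fat fate, was at 40.7 to 43.0 CPM in wild-type and 45.8 to 62.7 CPM in knockout libraries, without a call (adjusted p = 0.185).

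The call of Dio2 was lost without wild-type 1, 2 or 4 or without knockout 2, 3 or 4 (adjusted p 0.0735 to 0.145), that of Ppargc1a without wild-type 2, knockout 2 or knockout 3 (0.0530 to 0.0810), and that of Nrg4 without wild-type 1, knockout 2, 3 or 4 (0.0510 to 0.119). Against wild-type 3 and 4 alone the log2 values were 1.84, 1.53 and 0.48, with adjusted p of 0.207, 0.148 and 0.136.

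**Figure D2:**
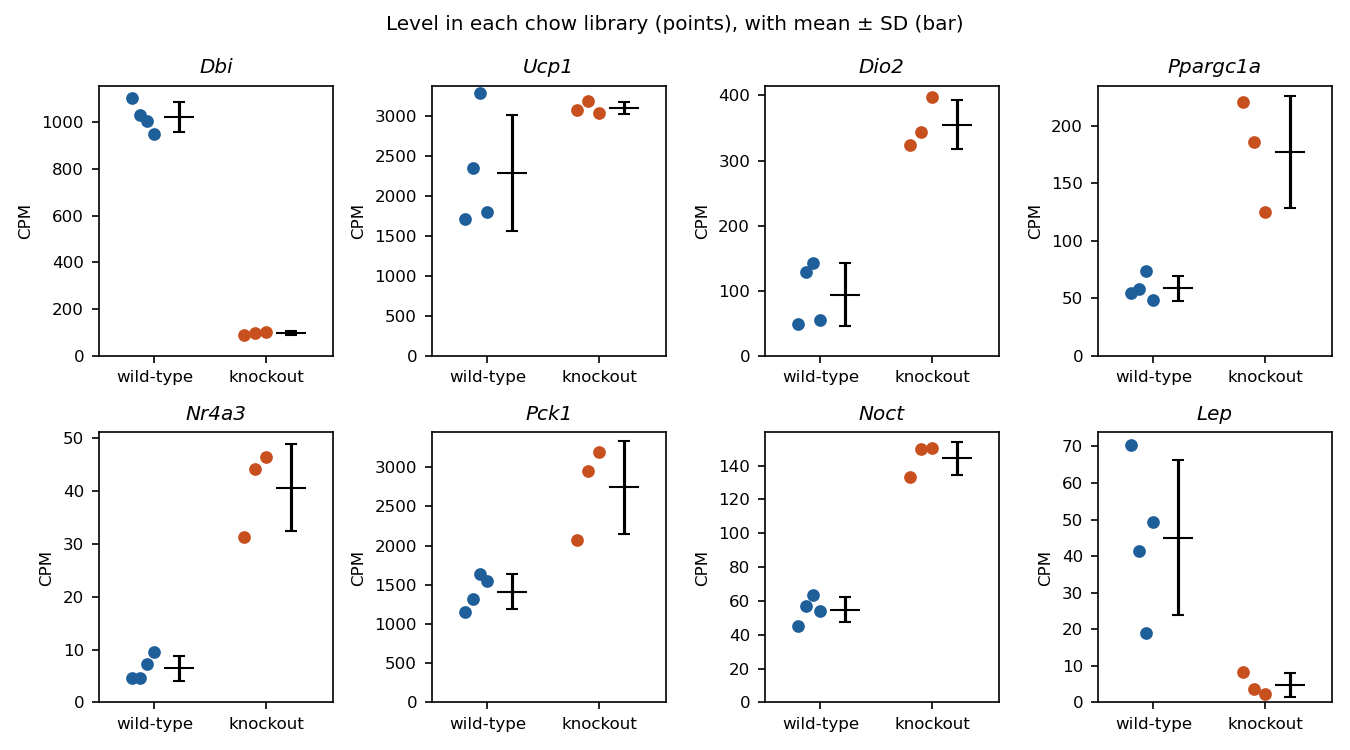
Level (CPM, each vertical axis from 0) of 8 genes in each chow library, with mean ± SD beside the points. Dbi and Lep are lower in all 3 knockout libraries, Dio2, Ppargc1a, Nr4a3, Pck1 and Noct are higher in all 3, and Ucp1 overlaps.

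Along the cAMP pathway the calls lay in its induced genes and in 1 phosphodiesterase. Among 23 adrenergic receptors, G proteins and adenylyl cyclases none was called by edgeR or limma-voom, DESeq2 called 1 higher and 1 lower, and unadjusted p under 0.05 was found for 5 higher and 2 lower. Adrb1, the β1-adrenergic receptor, was at 31.3 ± 4.13 CPM in wild-type and 19.5 ± 5.11 CPM in knockout tissue (SD, log2 -0.68, SE 0.19, adjusted p = 0.100). Adrb3, the main adipocyte receptor, was at 112 to 212 CPM in wild-type and 123 to 171 CPM in knockout libraries (adjusted p = 0.807). Of 16 phosphodiesterases, which degrade cyclic nucleotides, Pde4d rose and 13 had a positive log2 value. Pde4d was at 107, 123, 154 and 151 CPM in wild-type and at 234, 241 and 237 CPM in knockout tissue. The 3 knockout libraries lay close together above all 4 wild-type libraries (1.77-fold, log2 0.83, SE 0.13, adjusted p = 0.00929). None of 15 protein kinase A subunits and anchors was called by edgeR or limma-voom, with 3 at an unadjusted p under 0.05 and 2 called by DESeq2. The regulatory subunit Prkar1a was at 135 ± 9.05 CPM in wild-type and 164 ± 6.54 CPM in knockout tissue (adjusted p = 0.0603, and 0.0399 without wild-type 3).

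Of 23 CREB-family and cAMP-induced genes, Nr4a3 and Pck1 rose, none fell, and 18 had a positive log2 value, with a median of 0.185 against -0.011 over all genes. The knockout libraries lay above all wild-type libraries for 9 of the 23, where 6.63% of all genes did so. Nr4a3, an orphan nuclear receptor induced by adrenergic stimulation, was at 4.65, 4.55, 7.29 and 9.46 CPM in wild-type 1 to 4. In knockout 2 to 4 it was at 31.3, 44.2 and 46.5 CPM. The lowest knockout library was above 3 times the highest wild-type library. The rise was 6.28-fold (log2 2.65, SE 0.39, adjusted p = 0.00534). Its paralog Nr4a2 was at 9.66, 13.6, 11.8 and 33.7 CPM in wild-type and 57.9, 29.7 and 17.3 CPM in knockout tissue, and the groups overlapped (adjusted p = 0.192, and 0.0231 without wild-type 4).

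Pck1, phosphoenolpyruvate carboxykinase, makes glycerol phosphate for re-esterification of fatty acids in fat. It was at 1148, 1325, 1641 and 1544 CPM in wild-type and at 2072, 2955 and 3197 CPM in knockout tissue. Knockout 2 was the lowest of its group, above every wild-type library (1.94-fold, log2 0.95, SE 0.18, adjusted p = 0.0164). Crem, which encodes cAMP-responsive modulators, had a log2 value of 0.51 (SE 0.12, adjusted p = 0.0538, and 0.0467 without knockout 2). The salt-inducible kinase Sik3, which restrains CREB coactivators, had 0.55 (SE 0.13, adjusted p = 0.0542), and the coactivator Crtc2 had 0.35 (SE 0.09, adjusted p = 0.0700, and 0.0215 without wild-type 4). The call of Pck1 was lost without wild-type 2, knockout 3 or knockout 4 (adjusted p 0.0554 to 0.0925). Against wild-type 3 and 4 alone, Nr4a3, Pck1 and Pde4d had log2 values of 2.28, 0.78 and 0.64, with adjusted p of 0.101, 0.166 and 0.0991.

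Promoter sequences of 4 of these higher genes are shown because each holds the letters TGACG or their reverse complement, the half-site of the cAMP response element, whose full form is TGACGTCA. Printed are the 250 bases before the annotated start, 5′ to 3′ on the gene's strand, from RefSeq on build GRCm38.p6, with matches in capitals. Dio2 lies on the minus strand (chr12:90739039-90739288) and holds the full element. Its first base is 95 bases before the start.
Dio2: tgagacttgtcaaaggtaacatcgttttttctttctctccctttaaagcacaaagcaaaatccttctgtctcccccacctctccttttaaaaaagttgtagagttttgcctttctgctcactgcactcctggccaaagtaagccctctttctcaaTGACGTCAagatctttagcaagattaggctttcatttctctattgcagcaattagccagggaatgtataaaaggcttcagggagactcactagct
Nr4a3 lies on the plus strand (chr4:48045055-48045304) and holds 4 half-sites, the nearest of them 147 bases before the start.
Nr4a3: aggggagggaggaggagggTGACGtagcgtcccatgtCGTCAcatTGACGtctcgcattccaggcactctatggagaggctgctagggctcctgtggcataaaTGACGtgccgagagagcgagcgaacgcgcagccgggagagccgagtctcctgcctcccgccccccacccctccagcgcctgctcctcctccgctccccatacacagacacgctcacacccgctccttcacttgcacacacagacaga
Ppargc1a lies on the minus strand (chr5:51567726-51567975), with 1 half-site 49 bases before the start.
Ppargc1a: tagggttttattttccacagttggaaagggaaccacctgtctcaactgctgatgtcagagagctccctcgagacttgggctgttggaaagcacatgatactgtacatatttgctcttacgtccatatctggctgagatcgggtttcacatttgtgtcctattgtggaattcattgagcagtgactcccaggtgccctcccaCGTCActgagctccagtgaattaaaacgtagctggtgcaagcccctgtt
Pck1 lies on the plus strand (chr2:173152823-173153072), with 1 half-site 90 bases before the start.
Pck1: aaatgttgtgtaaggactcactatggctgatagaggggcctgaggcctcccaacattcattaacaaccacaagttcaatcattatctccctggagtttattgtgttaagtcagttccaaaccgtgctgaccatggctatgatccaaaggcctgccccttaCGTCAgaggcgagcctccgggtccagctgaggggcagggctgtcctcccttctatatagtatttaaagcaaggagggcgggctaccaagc

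Windows of 300 bases, 250 before and 50 after the start, were found for 11982 of the genes tested and for 74 of the higher and 64 of the lower called genes. TGACG on either strand occurred in 33.0% of the genes tested, in 50.0% (37 of 74) of the higher genes and in 23.4% (15 of 64) of the lower genes, and in 20.8% of all 32851 promoters. The full TGACGTCA, which contains the half-site on both strands, occurred in 3.26%, 4.05% (3 of 74) and 1.56% (1 of 64), and in 1.79% of all promoters. Mean GC content was 59.8% for the genes tested, 59.3% for the higher and 59.6% for the lower genes. TGACG contains the pair CG, whose mean number per window was 19.3, 20.3 and 18.6 in the same order. The motif shares and these means are descriptions of the letters in the windows and were not tested.

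Clock genes moved in both directions. Of 20 core clock genes, Cry2 and Bhlhe41 fell and none rose, and of 12 clock output genes Noct rose and none fell by edgeR, while DESeq2 called 2 of them lower. Over all genes edgeR called 0.519% higher and 0.536% lower, and DESeq2 called 329 higher and 279 lower of 17717. Noct encodes nocturnin, a phosphatase of NADP(H) with a strong daily rhythm in liver. It was at 45.4, 57.1, 63.2 and 53.8 CPM in wild-type and at 133, 150 and 150 CPM in knockout tissue. The groups were far apart and each was tight (2.63-fold, log2 1.39, SE 0.15, adjusted p = 2.22e-04).

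Cry2, a cryptochrome that represses the CLOCK and BMAL1 activators, was at 23.9, 24.0, 20.7 and 24.1 CPM in wild-type and at 12.9, 13.7 and 11.1 CPM in knockout tissue. Every knockout library was below every wild-type library (log2 -0.88, SE 0.14, adjusted p = 0.00796). Bhlhe41, the repressor DEC2, was at 14.4, 13.8, 7.54 and 7.53 CPM in wild-type and at 4.47, 3.63 and 4.70 CPM in knockout tissue. Wild-type 1 and 2 were well above wild-type 3 and 4, and the knockout libraries were below both pairs (log2 -1.34, SE 0.23, adjusted p = 0.0136).

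The same division by number run of library names appeared in Hlf and Per3, which were not called. Hlf, a PAR bZIP output factor, was at 42.3, 39.5, 25.6 and 24.3 CPM in wild-type and at 19.95, 18.2 and 19.3 CPM in knockout tissue (adjusted p = 0.0552). Per3 was at 36.0, 34.0, 21.5 and 14.9 CPM in wild-type and at 12.1, 14.6 and 17.4 CPM in knockout tissue (adjusted p = 0.0965). Dbp, another output factor, was at 15.3, 27.5, 16.1 and 4.17 CPM in wild-type and at 4.91, 3.47 and 6.54 CPM in knockout tissue, so wild-type 4 lay within the knockout range (adjusted p = 0.0978). Arntl, which encodes BMAL1, was at 6.96 to 20.5 CPM in wild-type and 9.01 to 14.5 CPM in knockout libraries (adjusted p = 0.871). Npas2, a partner of BMAL1, was at 2.53 ± 1.53 CPM in wild-type and 5.53 ± 1.23 CPM in knockout tissue (SD, adjusted p = 0.185).

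Against wild-type 3 and 4 alone the log2 values were 1.3 for Noct (adjusted p = 0.014), -0.83 for Cry2 (0.0782), -0.82 for Bhlhe41 (0.101), -0.38 for Hlf (0.378) and -0.30 for Per3 (0.594). The calls of Cry2 without knockout 4 (0.0552) and of Bhlhe41 without knockout 3 or 4 (0.0552 to 0.0813) were lost, and without wild-type 4 Dbp, Hlf and Per3 were called (0.0215 to 0.0276), as was Hlf without wild-type 3 (0.0360). The promoter of Bhlhe41 is shown because it holds the E-box CACGTG, the element that CLOCK and BMAL1 bind, 153 bases before the start (minus strand, chr6:145865421-145865670, same source and marking).
Bhlhe41: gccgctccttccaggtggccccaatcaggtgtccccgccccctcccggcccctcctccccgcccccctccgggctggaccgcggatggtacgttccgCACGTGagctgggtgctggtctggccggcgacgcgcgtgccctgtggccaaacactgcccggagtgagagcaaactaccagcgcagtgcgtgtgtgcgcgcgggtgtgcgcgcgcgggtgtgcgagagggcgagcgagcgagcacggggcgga
CACGTG occurred in the 300-base windows of 11% of the genes tested, 14.9% (11 of 74) of the higher genes, 17.2% (11 of 64) of the lower genes and 7.15% of all promoters.

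**Figure D3:**
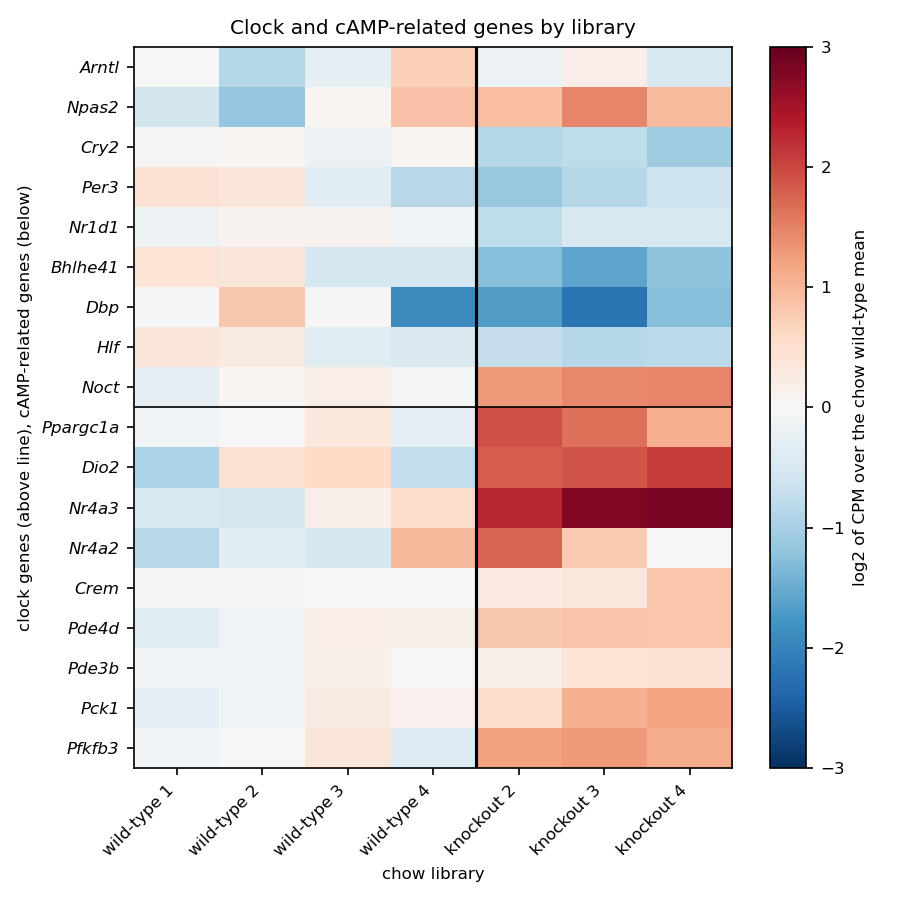
Log2 of the level in each chow library over the wild-type mean, for 9 clock genes (above the line) and 9 cAMP-related genes (below it). Red is above and blue below the wild-type mean, and wild-type 1 and 2 differ from wild-type 3 and 4 in Per3, Bhlhe41 and Hlf.

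Among genes that handle fatty acids, Acot4, Abhd5 and Lipg rose and Fabp3 and Plin3 fell. Fabp3, a fatty acid-binding protein of heart, muscle and brown fat, fell from 224, 223, 199 and 269 CPM in wild-type to 122, 126 and 87.7 CPM in knockout tissue. All knockout libraries were below all wild-type libraries (2.05-fold lower, log2 -1.03, SE 0.18, adjusted p = 0.0142). Acot4, a peroxisomal acyl-CoA thioesterase, rose from 5.17 ± 0.839 to 9.997 ± 2.38 CPM (SD, log2 0.95, SE 0.22, adjusted p = 0.0492). It has close paralogs, and the counting may have shared reads with them. These were the 2 calls among 30 acyl-CoA synthetases, thioesterases and fatty acid carriers. Acsl1, the main long-chain acyl-CoA synthetase of fat, was at 1625 ± 59.8 CPM in wild-type and 2036 ± 163 CPM in knockout tissue (adjusted p = 0.134).

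Of 20 genes of lipolysis and lipid droplets, Abhd5 rose and Plin3 fell. Abhd5, the activator of adipose triglyceride lipase, was at 67.8, 85.2, 90.3 and 83.6 CPM in wild-type and at 117, 132 and 132 CPM in knockout tissue. The groups were separate (1.55-fold, log2 0.64, SE 0.11, adjusted p = 0.0142). Plin3, a coat protein of small lipid droplets, went from 89.9 ± 8.15 to 65.0 ± 2.41 CPM (SD, log2 -0.47, SE 0.10, adjusted p = 0.0343). Of 16 lipid uptake genes Lipg, an endothelial phospholipase, rose from 4.91 ± 0.870 to 10.2 ± 2.28 CPM (log2 1.05, SE 0.22, adjusted p = 0.0343), and lipoprotein lipase (Lpl) had a log2 value of 0.40 (SE 0.14, adjusted p = 0.194).

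None of 32 fatty acid oxidation genes was called by edgeR or limma-voom, DESeq2 called Ehhadh alone, and unadjusted p under 0.05 was found for 2 higher and 3 lower. Of these 32, 27 had a negative log2 value, with a median of -0.14, and the knockout libraries lay below all wild-type libraries for 6, against 6.17% of all genes. Ehhadh, a peroxisomal enzyme of this list, was at 35.8, 57.8, 85.8 and 91.1 CPM in wild-type and at 111, 190 and 192 CPM in knockout tissue (log2 1.28, SE 0.37, adjusted p = 0.104). None of 28 genes of fatty acid synthesis, elongation and desaturation was called by edgeR or limma-voom, with 3 higher and 1 lower at an unadjusted p under 0.05. DESeq2 called the elongase Elovl5, at 176 ± 41.5 CPM in wild-type and 259 ± 20.4 CPM in knockout tissue (SD, edgeR adjusted p = 0.0729, and 0.0493 without wild-type 4). None of 24 cholesterol genes was called by edgeR or limma-voom, with 1 higher and 3 lower at an unadjusted p under 0.05, and DESeq2 called 1 in each direction.

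The call of Fabp3 and that of Abhd5 were lost without knockout 3 or 4 (adjusted p 0.0511 to 0.0826), that of Plin3 without wild-type 2 or 3 or any knockout library (0.0614 to 0.119), that of Lipg without wild-type 1, 2 or 4 or any knockout library (0.0552 to 0.136), and that of Acot4 without any 1 wild-type library or knockout 3 or 4 (0.0562 to 0.211). Against wild-type 3 and 4 alone none of the 5 was called (0.0885 to 0.220).

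In glucose and amino acid metabolism Pfkfb3 and Slc3a2 rose. Pfkfb3 makes fructose-2,6-bisphosphate, an activator of glycolysis, and was the 1 call among 23 genes of glycolysis and glucose uptake. It was at 314, 326, 428 and 254 CPM in wild-type and at 760, 806 and 715 CPM in knockout tissue. The knockout libraries were all above the wild-type libraries (2.30-fold, log2 1.20, SE 0.19, adjusted p = 0.00796). Slc3a2, the heavy chain shared by several amino acid transporters (CD98), was the 1 call among 26 genes of amino acid transport and branched-chain amino acid breakdown. It was at 22.8, 24.2, 29.7 and 26.9 CPM in wild-type and at 63.8, 61.6 and 63.8 CPM in knockout tissue. The knockout values were nearly equal and well above all wild-type values (2.43-fold, log2 1.28, SE 0.12, adjusted p = 4.55e-05).

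Of 24 insulin signalling genes Socs2 and Foxo1 rose. Socs2, a suppressor of growth hormone signalling, was at 2.76, 3.42, 2.98 and 5.11 CPM in wild-type and at 8.01, 9.30 and 7.33 CPM in knockout tissue (2.30-fold, log2 1.20, SE 0.17, adjusted p = 0.00420). Wild-type 4 was the highest of its group and below every knockout library. Foxo1, a transcription factor restrained by insulin, was at 93.1, 90.6, 97.6 and 72.8 CPM in wild-type and at 154, 156 and 121 CPM in knockout tissue (log2 0.70, SE 0.15, adjusted p = 0.0405). Its call was lost without wild-type 1, 2 or 4 or any knockout library (0.0649 to 0.164). Igf1, which growth hormone induces, was at 18.8 to 31.4 CPM in wild-type and 54.9 to 65.2 CPM in knockout libraries without passing the test (log2 1.20, SE 0.39, adjusted p = 0.153). Pdk4, which blocks pyruvate oxidation, was at 914 to 2385 CPM in wild-type and 2300 to 3284 CPM in knockout libraries, and the groups overlapped (adjusted p = 0.180). Against wild-type 3 and 4 alone Slc3a2 was called (log2 1.16, adjusted p = 0.00549), and Pfkfb3, Socs2 and Foxo1 were not (0.0674 to 0.163).

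No nuclear gene of the listed respiratory complexes was called. Of 36 complex I genes 32, and of 42 nuclear genes of complexes II to V 36, had negative log2 values, with medians of -0.10 and -0.08 (-0.04 and -0.02 when scaled by library totals). The medians were -0.06 and -0.04 with a muscle score as covariate and -0.03 and -0.02 with muscle and reduced hepatocyte scores. None of these 78 genes was called by edgeR, DESeq2 or limma-voom or had an unadjusted p under 0.05. Of 13 genes of mitochondrial DNA, all had negative values and mt-Nd6 was called. It was at 2026, 1441, 1572 and 1742 CPM in wild-type and at 929, 958 and 1034 CPM in knockout tissue (log2 -0.80, SE 0.14, adjusted p = 0.0148). The groups were separate. mt-Nd6 is read from the opposite strand to the other protein genes of the genome, the strand setting is not given, and its reads cannot be told apart from antisense RNA. Its call was lost without any 1 knockout library (0.0561 to 0.0864).

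Alas1, the first enzyme of heme synthesis, fell. It was at 268, 283, 229 and 249 CPM in wild-type and at 157, 143 and 147 CPM in knockout tissue. Every knockout library was below every wild-type library (1.73-fold lower, log2 -0.79, SE 0.10, adjusted p = 0.00133), also against wild-type 3 and 4 alone (log2 -0.68, adjusted p = 0.0397). Slc25a32, the mitochondrial carrier of folate and FAD, was at 84.3 ± 2.51 CPM in wild-type and 53.3 ± 3.25 CPM in knockout tissue (SD, log2 -0.66, SE 0.14, adjusted p = 0.0333). Coq10b, which chaperones coenzyme Q, went the other way, from 22.6 ± 3.22 to 37.5 ± 5.39 CPM (log2 0.73, SE 0.15, adjusted p = 0.0261). Both were picked after their values were seen. The call of Slc25a32 was lost without wild-type 1, 2 or 4 or any knockout library (0.0523 to 0.137) and that of Coq10b without wild-type 1 or 4 or knockout 3 or 4 (0.0530 to 0.132).

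Among 24 adipokines and secreted factors Nrg4 rose and Lep and S100b fell. Lep encodes leptin, the hormone that reports fat stores. It was at 70.4, 41.5, 19.1 and 49.3 CPM in wild-type and at 8.35, 3.56 and 2.40 CPM in knockout tissue. The wild-type libraries spread widely and the lowest of them was still above the highest knockout library (9.46-fold lower, log2 -3.24, SE 0.69, adjusted p = 0.0350). The 9 white adipocyte-enriched markers that were measurable held no other call by edgeR. Their summed level was 170 to 243 CPM in wild-type and 135 to 137 CPM in knockout libraries. That sum includes Lep itself and Npr3, at 91.6 to 113 CPM in wild-type and 43.9 to 75.4 CPM in knockout libraries. Of the 9 markers, 5 had a positive log2 value, and the median was 0.03. S100b, which brown adipocytes use to draw in sympathetic nerve fibres and which Schwann cells also express, was at 33.0, 26.9, 34.2 and 36.8 CPM in wild-type and at 24.6, 19.8 and 16.2 CPM in knockout tissue (log2 -0.70, SE 0.15, adjusted p = 0.0344). Summed Schwann cell and nerve markers overlapped, at 113 to 153 CPM in wild-type and 97.4 to 124 CPM in knockout libraries. Adipoq, adiponectin, did not pass (log2 0.05, SE 0.13), and Fgf21 was at 0.111 to 0.574 CPM over the 7 libraries. Bmp8b was at 0.0282 to 0.514 CPM in wild-type and 0.0466 to 0.0737 CPM in knockout libraries (adjusted p = 0.150). The call of Lep was lost without wild-type 1, 2 or 4 or knockout 3 or 4 (0.0523 to 0.160) and that of S100b without wild-type 1, 3 or 4 or knockout 3 or 4 (0.0594 to 0.156), and neither was called against wild-type 3 and 4 alone (0.165 and 0.0837).

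**Figure D4:**
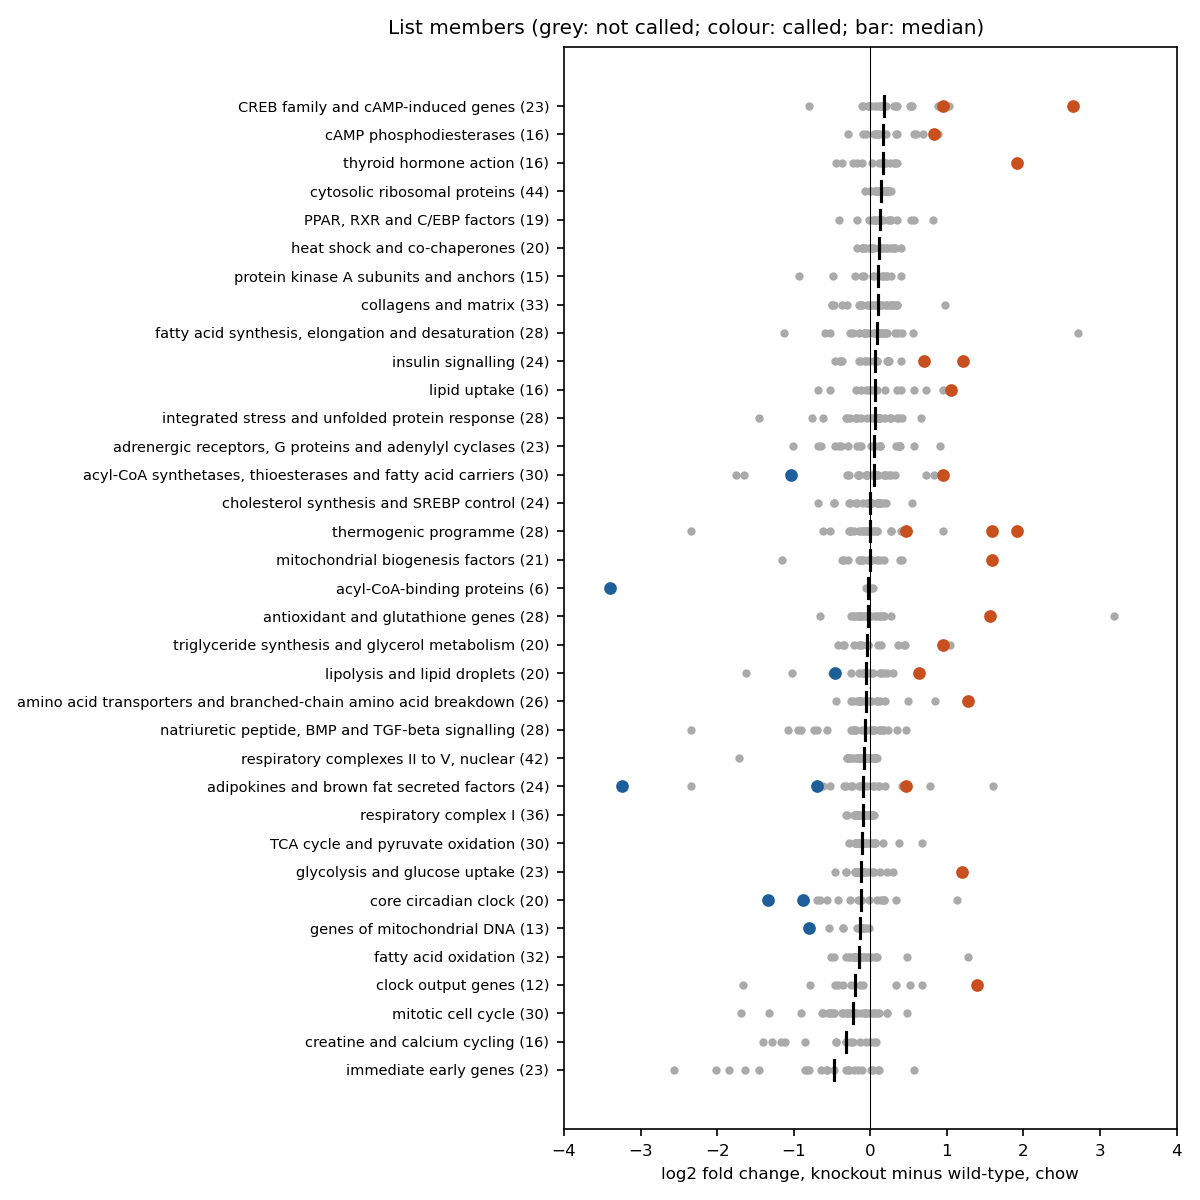
Log2 fold change of knockout over wild-type on chow for the members of 35 gene lists, with the number tested in brackets and 2 members beyond ±4 not drawn. Most lists have medians near 0 and hold 0 to 3 called genes, and the immediate early genes have the lowest median (-0.47).

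Calls were made by edgeR for 1.06% of all genes, a share at which lists of this size may hold none. DESeq2 called 608 of 17717 genes. None of 23 immediate early genes was called by edgeR or limma-voom, DESeq2 called 4 lower, and 1 higher and 9 lower had an unadjusted p under 0.05. Their median log2 value was -0.47, 18 were negative, and the knockout libraries lay below all wild-type libraries for 6 of the 23, against 6.17% of all genes. Jun was at 37.5, 61.0, 69.9 and 57.3 CPM in wild-type and at 28.9, 31.4 and 35.2 CPM in knockout tissue, separate without a call (adjusted p = 0.0850, and 0.0412 without wild-type 1). Egr1 ranged from 9.24 to 125 CPM within wild-type and from 4.35 to 16.1 CPM within knockout libraries (adjusted p = 0.215). Of 44 cytosolic ribosomal protein genes 43 had a positive value, with a median of 0.14, and 11 had an unadjusted p under 0.05, but none was called by edgeR, DESeq2 or limma-voom. Of 28 genes of the integrated stress and unfolded protein response none was called by edgeR or limma-voom, DESeq2 called 3 higher, and 5 higher had an unadjusted p under 0.05. Dnajb9, a chaperone of the endoplasmic reticulum, had a log2 value of 0.66 (SE 0.16, adjusted p = 0.0542, and 0.0428 to 0.0467 without wild-type 4 or knockout 2). None of 19 PPAR, RXR and C/EBP factors was called by edgeR or limma-voom, with 5 higher and 1 lower at an unadjusted p under 0.05 and 2 higher by DESeq2, and 16 had a positive value. None of 30 genes of the TCA cycle and pyruvate oxidation was called by edgeR, DESeq2 or limma-voom. At an unadjusted p under 0.05 there were 2 in each direction. Of these 30, 22 had a negative log2 value, with a median of -0.11 (-0.07 with a muscle score as covariate). The knockout libraries lay below all wild-type libraries for 8 and above them for 1, against 6.17% and 6.63% of all genes. Of 16 creatine and calcium cycling genes 13 were negative (median -0.32), none was called by edgeR or limma-voom, 3 had an unadjusted p under 0.05, and DESeq2 called 1 lower. All 26 skeletal muscle markers were also negative, and the median of the creatine and calcium cycling list was -0.19 with a muscle score as covariate and -0.13 with muscle and reduced hepatocyte scores. None of 20 heat shock genes was called by edgeR, DESeq2 or limma-voom, with 3 higher at an unadjusted p under 0.05.

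Impact, an inhibitor of the amino acid sensor GCN2, rose from 12.2, 11.04, 13.97 and 13.4 CPM in wild-type to 22.8, 24.6 and 22.9 CPM in knockout tissue. The groups were well separated (1.85-fold, log2 0.89, SE 0.10, adjusted p = 5.06e-04). Sqstm1, the autophagy receptor p62, was at 134 to 173 CPM in wild-type and 191 to 243 CPM in knockout libraries (log2 0.52, SE 0.11, adjusted p = 0.0343). Gsta3, a glutathione S-transferase with close paralogs that may share reads, was the 1 call among 28 antioxidant genes, at 0.696 to 1.81 CPM in wild-type and 3.17 to 3.82 CPM in knockout libraries (2.96-fold, log2 1.57, SE 0.36, adjusted p = 0.0458). Gpx8, a peroxidase of the endoplasmic reticulum, was picked after its values were seen. It was at 37.3, 36.6, 41.1 and 36.9 CPM in wild-type and at 66.4, 69.7 and 93.9 CPM in knockout tissue (2.02-fold, log2 1.01, SE 0.15, adjusted p = 0.00455). The call of Sqstm1 was lost without wild-type 1, 2 or 4 or knockout 3 or 4 (0.0621 to 0.172) and that of Gsta3 without wild-type 1, 2 or 3 or any knockout library (0.0774 to 0.147).

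Further genes with small adjusted p had narrow spreads and moderate changes. Sav1, the Salvador scaffold of the Hippo pathway, was at 40.9, 43.9, 45.1 and 51.2 CPM in wild-type and at 67.9, 72.4 and 72.6 CPM in knockout tissue (log2 0.65, SE 0.08, adjusted p = 0.00133). Cmtm6, which keeps PD-L1 at the cell surface, was at 32.2 to 36.6 CPM and 48.1 to 51.0 CPM (log2 0.52, SE 0.07, adjusted p = 0.00205). Numb, an endocytic adaptor that restrains Notch, was at 14 to 14.7 CPM and 19.6 to 21.6 CPM (log2 0.50, SE 0.07, adjusted p = 0.00349). In each of these the groups were separate by more than the width of either group. Slc22a15, an organic ion transporter, was at 7.72 to 8.60 CPM and 11.9 to 15.9 CPM (log2 0.72, SE 0.10, adjusted p = 0.00349). Sh3pxd2a, a scaffold of podosomes, was at 475 to 577 CPM and 805 to 887 CPM (log2 0.67, SE 0.12, adjusted p = 0.0142). Its call was lost without knockout 3 or 4 (0.0685 to 0.0810). Picalm, a clathrin assembly protein, and Ranbp2, a nucleoporin, had log2 values of 0.37 and 0.30 (adjusted p = 0.0458 and 0.0301), and their calls were lost without wild-type 1 or 2 or any knockout library, and for Picalm also without wild-type 3 or 4 (0.0561 to 0.189). Sav1 and Cmtm6 were also called against wild-type 3 and 4 alone (adjusted p = 0.0445 and 0.0237), and Numb, Slc22a15, Sh3pxd2a, Picalm and Ranbp2 were not (0.0572 to 0.245).

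The further large falls given here were of genes with wild-type means from 1.03 (Sox9) to 35.35 CPM (Gprin3). Gldn, gliomedin, a matrix protein known from the nodes of Ranvier, was at 14.3, 12.0, 15.6 and 20.9 CPM in wild-type and at 4.72, 5.51 and 2.05 CPM in knockout tissue. All knockout libraries were well below wild-type (3.84-fold lower, log2 -1.94, SE 0.30, adjusted p = 0.00796). Gprin3, a regulator of neurite outgrowth, was at 29.9 to 43.6 CPM in wild-type and 9.19 to 14.5 CPM in knockout libraries (2.91-fold lower, adjusted p = 0.0120). Fam20c, the Golgi kinase of secreted proteins, was at 13.5 to 31.2 CPM and 6.38 to 8.82 CPM (2.57-fold lower, adjusted p = 0.0476). Lfng, a glycosyltransferase that modifies Notch, was at 5.76 to 12.1 CPM and 3.495 to 4.84 CPM (2.25-fold lower, adjusted p = 0.0415), and Axin2, a Wnt target picked after its values were seen, was at 24.4 to 36.2 CPM and 12.3 to 16.2 CPM (2.05-fold lower, adjusted p = 0.0447). For Fam20c, Lfng and Axin2, as for Bhlhe41, wild-type 1 and 2 were above wild-type 3 and 4. Sgo2a, a protector of chromosome cohesion, was at 3.30 to 5.82 CPM and 1.65 to 2.06 CPM (2.38-fold lower, adjusted p = 0.00796). Sox9, Lzts1 and Cela1 fell 2.83, 2.77 and 2.62-fold from wild-type means of 1.03, 2.84 and 1.45 CPM (adjusted p = 0.0458, 0.0250 and 0.0260).

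Of these genes Gldn and Sgo2a were also called against wild-type 3 and 4 alone (adjusted p = 0.0268 and 0.00667). The call of Sgo2a was lost without knockout 4 (0.0552), that of Gprin3 without knockout 3 or 4 (0.0601 to 0.0689), and those of Fam20c, Lfng, Axin2, Sox9, Lzts1 and Cela1 without wild-type 2, knockout 3 or knockout 4 and, for all but Cela1, without wild-type 1, for all but Lzts1 without knockout 2, and for Axin2 without wild-type 3 (0.0509 to 0.185).

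Among the larger rises, Lrrc52, an accessory subunit of potassium channels, was at 0.0282 to 0.356 CPM in wild-type and 1.02 to 1.47 CPM in knockout libraries (8.46-fold, log2 3.08, SE 0.69, adjusted p = 0.0430). Ccno, cyclin O, known from multiciliated cells, was at 0.151 to 0.630 CPM and 1.35 to 2.48 CPM (5.03-fold, adjusted p = 0.0478). Cldn1, a tight junction protein, was at 1.69, 1.62, 4.48 and 1.75 CPM in wild-type and at 3.54, 10.2 and 14.7 CPM in knockout tissue. Wild-type 3 was above knockout 2, so the groups overlapped despite the call (log2 1.99, SE 0.46, adjusted p = 0.0476). Serpina1e, a hepatocyte marker of a multigene family that may share reads, was at 0 to 0.110 CPM in wild-type and at 0.663, 4.47 and 2.02 CPM in knockout tissue (log2 5.54, SE 1.21, adjusted p = 0.0406). Of the 34 hepatocyte markers 33 had a positive log2 value, but the filter used all 17 libraries, so markers could enter through groups where they were high. For the 8 at 0 in all chow wild-type libraries the sign could only be positive. The list median was 5.06, and 0.74 with a filter of 1 CPM over the chow libraries. Alb, albumin, was at 0.0845, 0.274, 0 and 0.816 CPM in wild-type and at 4.08, 38.2 and 5.52 CPM in knockout tissue without a call (adjusted p = 0.138). DESeq2 called 15 of the hepatocyte markers higher, under the same limit, against 329 of 17717 genes. The call of Lrrc52 was lost without wild-type 1, 3 or 4, that of Cldn1 without wild-type 1, 2 or 4, those of Ccno and Serpina1e without any 1 wild-type library, those of all 4 without knockout 3 or 4, and those of Lrrc52 and Ccno without knockout 2 (0.0570 to 0.208).

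Rnu1a1, 1 of the 6 U1 copies with identical counts, was at 32.0, 32.9, 44.8 and 43.6 CPM in wild-type and at 12.5, 13.1 and 7.82 CPM in knockout tissue (3.44-fold lower, log2 -1.78, SE 0.32, adjusted p = 0.0142). The 6 copies count as 1 measurement, and the call was lost without knockout 3 or 4 (0.0601 to 0.0851). U1 is a small nuclear RNA and the libraries were made for mRNA, so its counts may not follow its level in the tissue. This was not tested. Other genes were picked after their values were seen. Lamb1, a laminin chain, and Lclat1, an acyltransferase of lysophospholipids, were higher with log2 values of 0.90 and 0.58 (adjusted p = 0.0324 and 0.0103). Fgf1, a fibroblast growth factor under PPARγ control in white fat, was at 25.04 to 32.4 CPM in wild-type and 8.56 to 18.4 CPM in knockout libraries (2.11-fold lower, adjusted p = 0.0161). Ndn, necdin, which restrains adipogenesis, was at 23.3 to 26.7 CPM and 14.2 to 16.1 CPM (1.596-fold lower, adjusted p = 0.0124). Uhrf1, which guides maintenance of DNA methylation, was at 2.62 to 3.80 CPM and 1.44 to 1.77 CPM (2.00-fold lower, adjusted p = 0.0148). The calls of Fgf1, Ndn, Uhrf1 and Lamb1 were lost without knockout 3 or 4, that of Lclat1 without knockout 4, that of Uhrf1 also without knockout 2, and that of Lamb1 also without wild-type 1, 2 or 4 (0.0544 to 0.137).

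Markers of other cells of the tissue are set beside the 1.06% called over all genes. Endothelial markers (18), macrophage markers (18), T, B and NK cell markers (13), erythroid markers (7), collagens and matrix genes (33) and mitotic cell cycle genes (30) had no call by edgeR, DESeq2 or limma-voom. At an unadjusted p under 0.05, endothelial markers had 3 higher and 1 lower, collagens and matrix genes 2 lower, mitotic genes 1 higher and 2 lower, and the other 3 lists had none. Sox9 was the 1 call among 15 preadipocyte and fibroblast markers. None of 10 smooth muscle and pericyte markers was called by edgeR or limma-voom, and DESeq2 called 1 lower, as at an unadjusted p under 0.05. Their summed level did not overlap, at 647 to 683 CPM in wild-type and 591 to 627 CPM in knockout libraries (exact permutation test, p = 0.0286, the smallest possible, adjusted p = 0.162 over 17 library measures), and its part in the results was not tested. All 26 skeletal muscle markers had negative log2 values, with a median of -1.32, but none was called by edgeR, DESeq2 or limma-voom and none had an unadjusted p under 0.05. With the muscle score alone as a covariate 120 genes were called, 60 in each direction.

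Genes that flank Ucp1 and Dbi, by the order of protein-coding genes in RefSeq, were also looked up, and a selection is given. The gene beyond Elmod2 and those on the other side of Dbi are not given, so the extent of the differences is not shown. Tbc1d9 and Elmod2 lie directly on either side of Ucp1. Tbc1d9, a Rab GTPase-activating protein of the TBC family, was at 3.27, 3.45, 3.70 and 2.51 CPM in wild-type and at 10.4, 12.2 and 9.92 CPM in knockout tissue. The groups were widely separated (3.35-fold, log2 1.74, SE 0.13, adjusted p = 4.27e-06). Elmod2, an activator of ARF-family GTPases, was at 26.9, 30.9, 29.1 and 42.9 CPM in wild-type and at 81.4, 88.5 and 104 CPM in knockout tissue. Here too all knockout libraries were far above wild-type (2.82-fold, log2 1.49, SE 0.13, adjusted p = 2.02e-05). Rnf150, the next gene beyond Tbc1d9, was at 56.4 to 66.6 CPM in knockout and 59.7 to 74.5 CPM in wild-type libraries (adjusted p = 0.453). Tmem37, next to Dbi, had a log2 value of -0.21 (adjusted p = 0.660). Sctr, the secretin receptor, which lies beyond Tmem37, was at 4.62, 2.66, 3.17 and 2.90 CPM in wild-type and at 6.02, 5.09 and 4.63 CPM in knockout tissue, without a call (log2 0.65, SE 0.16, adjusted p = 0.0645, and 0.0148 without wild-type 1). The sources used here do not give the driver construct or its insertion site, and its part in these values was not tested.

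The HFD libraries gave a second comparison of the genotypes, whose fold changes share no library with those on chow. Both tests used 1 estimate of the spread from all 17 libraries, so calls on both diets are not from independent tests. On HFD 95 of 17717 genes were called (0.536%). Of the 187 genes called on chow, 9 were also called on HFD, which is 4.81% of the chow calls and 9.47% of the HFD calls, and all 9 kept their direction: Dbi, Tbc1d9, Elmod2, Gldn, Mmp28, Sqstm1, Zfp518b, Anp32e and Gsta3. Mmp28, an extracellular protease, had log2 values of -0.84 on chow and -0.67 on HFD, and Gsta3 had 1.57 and 1.63. Zfp518b, a zinc finger protein, had -0.60 and -0.57, and Anp32e, a chaperone of histone H2A.Z, had 0.24 and 0.24. Of the 187, 132 had the same sign on HFD (70.6%, against 56.1% of all genes), and 185 were smaller there, with a median absolute log2 value of 0.18 against 0.72 on chow. The genes were selected on the chow values, so smaller values on HFD are no independent evidence of a difference. On chow the calls of Mmp28 without knockout 3 or 4 and of Zfp518b and Anp32e without wild-type 1, 2 or 3 or any knockout library were lost (adjusted p 0.0596 to 0.155).

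The difference between the diets was tested as an interaction, which called 16 of 17717 genes (0.0903%), 14 of them among the chow calls. The interaction uses the same chow libraries as the chow calls, so that overlap is in part built in. Both counts include the 6 U1 copies, which stand for 1 measurement. Dbi itself was called by the interaction test. It stood at 701 ± 55.6 CPM in HFD wild-type and 128 ± 21.3 CPM in HFD knockout tissue (SD, n = 5 and 5). The fall was larger on chow by 0.94 (log2, SE 0.15, adjusted p = 0.0377). Noct was at 58.5 ± 7.82 and 69.2 ± 12.8 CPM on HFD, and the chow rise was larger by 1.15 (SE 0.19, adjusted p = 0.0388). Slc3a2 was at 32.9 ± 4.11 and 41.8 ± 5.66 CPM on HFD, larger on chow by 0.94 (SE 0.16, adjusted p = 0.0388). Socs2, Gulp1, an adaptor for engulfment of dying cells, and Sh3pxd2a had HFD log2 values of -0.29, -0.32 and -0.33 against 1.20, 1.14 and 0.67 on chow (interaction adjusted p = 0.0377 for each). The chow call of Gulp1 was lost without knockout 4 (0.0552). Sav1 and Cmtm6 had HFD values of 0.03 and -0.10 (interaction adjusted p = 0.0394 and 0.0377). The 6 U1 copies had an HFD log2 value of 0.47 against -1.78 on chow (interaction adjusted p = 0.0394).

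For the genes that follow the interaction did not pass the test. Dio2 was at 105 ± 57.6 and 179 ± 56.2 CPM on HFD (log2 0.77, interaction adjusted p = 0.494), Ppargc1a at 65.0 ± 23.8 and 80.6 ± 26.5 CPM (0.31, interaction adjusted p = 0.229), and Nr4a3 at 3.31 ± 1.16 and 7.77 ± 4.38 CPM (1.23, interaction adjusted p = 0.326). Bhlhe41 was at 13.3 ± 2.08 and 13.97 ± 2.01 CPM (interaction adjusted p = 0.0830) and Lep at 279 ± 114 and 154 ± 93.2 CPM (interaction adjusted p = 0.308). Elovl3 was called on HFD, at 31.3 ± 8.80 and 82.6 ± 25.1 CPM (log2 1.40, adjusted p = 0.0337), where its chow value was -0.53 (interaction adjusted p = 0.0931). Diet, depth and the run of library numbers differed together between the 2 pairs of groups and cannot be told apart.

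**Figure D5:**
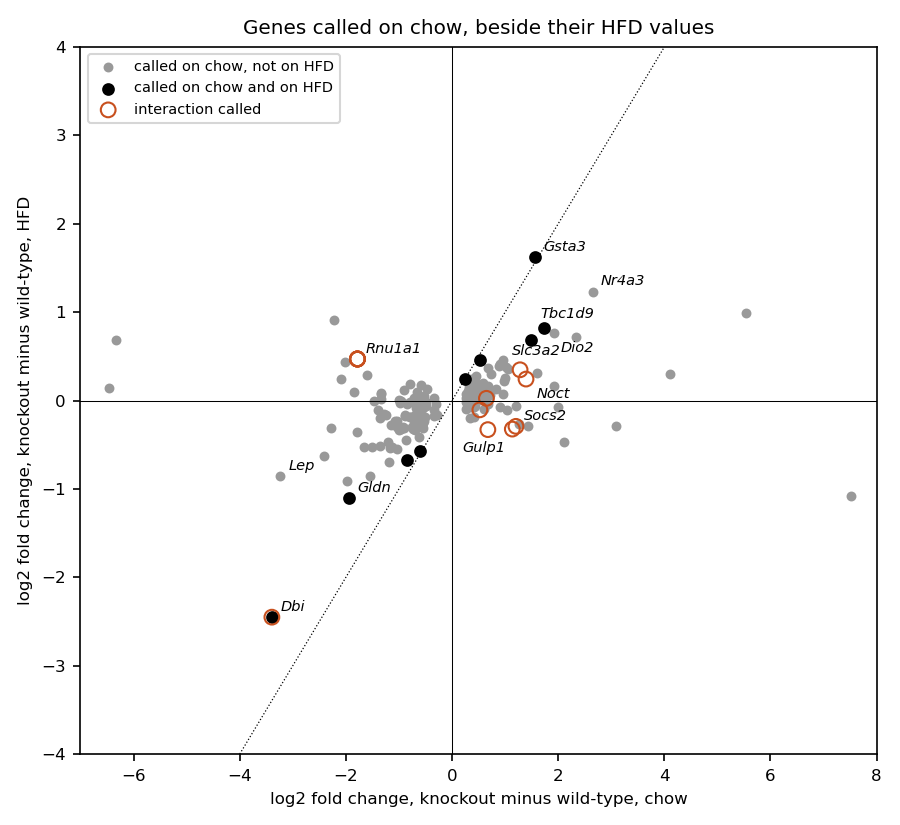
Log2 fold change of knockout over wild-type on chow (horizontal) and on HFD (vertical) for the 187 genes called on chow, with the line of equal values dotted. Filled black points were called on both diets and orange rings mark a called interaction, and most points lie near 0 on the vertical axis.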

How the data were processed

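Gene expression was measured in BAT by sequencing mRNA libraries made with a TruSeq kit, as the labels' protocols state. The authors deposited 1 table of whole-number counts per gene for 55414 genes, of which 25996 were 0 throughout. The submitters' processing notes name the build GRCm39 and the tools DESeq, RSEM 1.3.0, STAR 2.7.8a and FastQC without their roles, so the counts may be rounded estimates that share ambiguous reads. The annotation, the strand setting and any filter were not given in the sources used here. Groups were taken from the sample titles.

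Counts were fitted in R 4.3.3 with edgeR 4.0.16 (filterByExpr, TMM scaling, quasi-likelihood F test, two-sided, 1 coefficient for each of 4 groups, all 17 libraries), with Benjamini-Hochberg adjustment over 17717 genes and a threshold of 0.05. SE was derived from the fold change and its F statistic. CPM are TMM-scaled. limma 3.58.1 and DESeq2 1.42.0 served as alternatives, and the pipeline was tested on simulated data. Figures were drawn with matplotlib 3.10.9.

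The genes and lists were chosen with earlier results of these data known. Named were Dbi, 9 genes of brown fat and adipokines, the 12 called genes with the largest rise, drop, level and smallest p (at least 1 CPM for rise and drop, no predicted names), called list members, up to 4 members per list by adjusted p, and neighbours of Dbi and Ucp1. A selection of these is printed. Outside that rule, and chosen after their values were seen, are Nr4a2, Crtc2, Adrb3, Npas2, Arntl, Igf1, Egr1, Gpx8, Lamb1, Lclat1, Axin2, Fgf1, Coq10b, Slc25a32, Gulp1, Ndn, Mmp28, Uhrf1, Zfp518b and Anp32e.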

Additional observations from a re-analysis of the deposited data

Results flagged for a closer look

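In 8 of the 104 genes checked, 1 chow wild-type library stood apart from the other 3, where chance gives about 1 in 20. Wild-type 3 was the odd library for Cry2 (20.7 CPM), Lzts1 (1.45 CPM), Cldn1 (4.48 CPM) and Gpx8 (41.1 CPM). Wild-type 4 was the odd library for Nr4a2 (33.7 CPM), Crtc2 (31.5 CPM) and Adipoq (366 CPM), and wild-type 2 for Prdm16 (43.0 CPM).

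For 9 of these genes the genotype effect on chow differed from that on HFD by the interaction test (adjusted p of 0.05 or less). The difference, chow minus HFD on the log2 scale, was -0.94 for Dbi, 1.15 for Noct, 0.94 for Slc3a2, 1.5 for Socs2, 0.62 for Sav1, 0.63 for Cmtm6, 1 for Sh3pxd2a, 1.46 for Gulp1 and -2.25 for Rnu1a1.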

How the results depend on the processing

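The count of called genes was 187, with 92 higher and 95 lower. It was 190 with relative log expression (RLE) scaling in edgeR and 131 (83 and 48) with library totals. Without a filter on low counts it was 122 (58 and 64), and 218 with a 1 CPM filter. It was 129 (72 and 57) with chow libraries only, 608 (329 and 279) by DESeq2 and 81 (53 and 28) by limma-voom. The count was 16 (9 and 7) with 1 run of library names, 120 (60 and 60) with a muscle score, and 169 with muscle and hepatocyte scores. Of the 187 genes, 108 were still called with library totals, 76 with chow libraries only, 182 by DESeq2 and 79 by limma-voom. Leaving out 1 library gave 23 to 185 called genes, 18 to 94 higher and 5 to 91 lower. Chosen after seeing the data, muscle and reduced hepatocyte scores gave 6 (5 and 1), and thinning to the smallest total gave 192. The cause of these moves was not tested. With the library number as a replicate block 39 genes (21 and 18) were called. Deviations of same-numbered libraries from their group means correlated at -0.13, -0.17 and -0.26, and those of differently numbered libraries at -0.22 to 0.31. With so few libraries these values cannot decide whether the numbers pair them.

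Of 61 called genes named here, 6 passed all 20 alternatives. By limma-voom the calls of Dio2, Lep, Bhlhe41, Foxo1, Acot4, Picalm, Gsta3, Axin2, Uhrf1 and Sox9 were lost. So were those of Lzts1, Cela1, Fam20c, Lfng, Serpina1e, Cldn1, Mmp28, Zfp518b and Anp32e. Reversals occurred in uncalled genes alone. Adipoq was at -0.04 with muscle and reduced hepatocyte scores and at -0.04 to 0.12 with 1 library left out, Adrb3 at -0.26 to 0.04 and Arntl at -0.33 to 0.21 with 1 library left out. With library totals the median of all genes moved from -0.01 to 0.05, and list medians near 0 changed sign, among them those of acyl-CoA-binding, lipolysis, antioxidant and amino acid genes.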
